A study of Mus musculus with 12 samples.

Results

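The 10 genes described here, Adipoq, Plin1, Plin4, Cidec, Lep, Fabp4, Lpl, Retn, Cfd and Pparg, are genes of dermal and subcutaneous adipocytes. They were chosen by symbol as known adipocyte genes, and all 10 were found among the 18505 genes of the deposited FPKM table. FPKM counts fragments relative to transcript length and library size, so it is a level per length on a linear scale. RNA-seq of the back skin of wild-type (WT) BALB/c mice was compared on day 10 in 3 groups with 4 samples each. The control group received blank handling by its label, which the study's methods describe as petroleum jelly. The IMQ + NS group received imiquimod (IMQ) cream, a Toll-like receptor agonist that induces psoriasis-like lesions, followed by normal saline. The IMQ + BZLF group received the same cream followed by Banzhilian formula (BZLF), a botanical prescription, applied to the lesions. The BZLF dose of the sequenced samples is not stated in the labels or the study's methods. By those methods the saline and the BZLF were held in place under gauze and polyurethane film, a dressing not described for control mice. In comparisons with control, effects of the cream and of the dressing cannot be told apart. The labels do not state that each sample came from a separate mouse, so p-values measure the spread between these samples.

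White adipocytes of the skin lie below the dermis and around hair follicles, store triglyceride in a single large droplet and secrete hormones called adipokines. Differentiation is driven by the nuclear receptor PPARγ, encoded by Pparg, together with C/EBP factors, and most of the other genes here are its known targets. Lpl and Fabp4 products bring fatty acids into the cell and carry them, Plin1, Plin4 and Cidec products coat and enlarge the droplet, and Adipoq, Lep, Retn and Cfd products are secreted. Not every gene is specific to the adipocyte. Fabp4 is also expressed by capillary endothelium and macrophages, Lpl by muscle and macrophages, Pparg by macrophages and sebocytes, and Plin4 by muscle. All 10 genes had an FPKM above 0 in all 12 samples, and all 10 passed the filter of a mean FPKM of at least 0.1.

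In the annotation of GRCm38.p6, the patch release of the mm10 build named in the submitters' processing notes, all 10 are protein coding. Fabp4 lies at chr3:10204342-10208616, Plin1 at chr7:79721164-79732904, Cfd at chr10:79890853-79892655, Adipoq at chr16:23146536-23157968 and Plin4 at chr17:56100587-56109948. Lep at chr6:29060221-29073876, Cidec at chr6:113424634-113435760 and Pparg at chr6:115360879-115490404 share chromosome 6. Retn at chr8:3655770-3659818 and Lpl at chr8:68880555-68906932 share chromosome 8.

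Promoter windows of 250 bases before a transcript start were found in RefSeq (GRCm38.p6) for 8 of the 10 genes, in 11 windows. The windows of 3 secreted products that moved together, Adipoq, Retn and Cfd, are shown with that of Lep, the secreted product that departed most from them. All 4 are on the plus strand, at chr16:23146286-23146535, chr8:3655520-3655769, chr10:79890603-79890852 and chr6:29059971-29060220, and capitals mark the letters TTGCGCAA (a C/EBP palindrome), AGGTCA (a nuclear receptor half-site) or CCAAT on either strand.
Adipoq: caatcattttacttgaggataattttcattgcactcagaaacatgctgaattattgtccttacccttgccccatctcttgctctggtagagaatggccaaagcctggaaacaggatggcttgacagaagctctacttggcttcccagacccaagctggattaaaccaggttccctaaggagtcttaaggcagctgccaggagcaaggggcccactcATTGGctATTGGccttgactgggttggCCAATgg
Retn: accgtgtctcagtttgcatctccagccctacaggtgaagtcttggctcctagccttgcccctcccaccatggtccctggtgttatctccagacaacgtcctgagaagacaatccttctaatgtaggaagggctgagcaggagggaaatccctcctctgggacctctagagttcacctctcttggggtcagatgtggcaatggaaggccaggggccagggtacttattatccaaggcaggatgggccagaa
Cfd: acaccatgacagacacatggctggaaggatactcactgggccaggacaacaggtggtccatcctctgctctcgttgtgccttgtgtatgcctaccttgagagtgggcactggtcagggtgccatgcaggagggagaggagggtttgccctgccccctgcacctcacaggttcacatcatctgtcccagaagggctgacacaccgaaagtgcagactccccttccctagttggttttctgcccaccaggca
Lep: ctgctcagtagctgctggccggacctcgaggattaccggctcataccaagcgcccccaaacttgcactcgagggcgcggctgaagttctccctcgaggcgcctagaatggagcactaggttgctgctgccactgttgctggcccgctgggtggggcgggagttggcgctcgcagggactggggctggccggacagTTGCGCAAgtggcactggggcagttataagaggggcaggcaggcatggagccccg
The Lep window held TTGCGCAA once, starting at position -55 from the transcript start, and no other of the 11 windows held it. It stood in 54 of all 32851 RefSeq windows of the same length (0.164%). The Adipoq window held CCAAT or its complement 3 times, and CCAAT was present in 4 of the 11 windows and in 33.8% of all windows. AGGTCA was present in 2 windows, both of Pparg, and in 14.0% of all windows. The direct repeat DR1, which holds the half-site 2 times with 1 base between and is the form bound by PPARγ with its partner RXR, was present in 0 of the 11 windows and in 0.0335% of all windows. These are matches of letters, not measured binding.

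Adipocyte genes were lower in IMQ-treated skin than in control skin, and the levels in IMQ + BZLF samples lay close to or slightly above those of IMQ + NS samples. The FPKM of the 10 genes added up to between 4323 and 9415 in control samples, between 2128 and 3335 in IMQ + NS samples and between 2896 and 3461 in IMQ + BZLF samples. The mean of this sum was 2.67 times as high in control as in IMQ + NS samples and 1.22 times as high in IMQ + BZLF as in IMQ + NS samples. In bulk tissue, fewer adipocytes, less RNA per adipocyte and a changed share of other tissue layers in the sample cannot be told apart. Genes were tested with limma on log2(FPKM + 0.1) with Benjamini-Hochberg adjustment over all 15288 genes tested, and a gene was called where the adjusted p was below 0.05 and the size of the log2 fold change exceeded 1. All fold changes below are on this scale, with the standard error (SE).

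**Figure D1:**
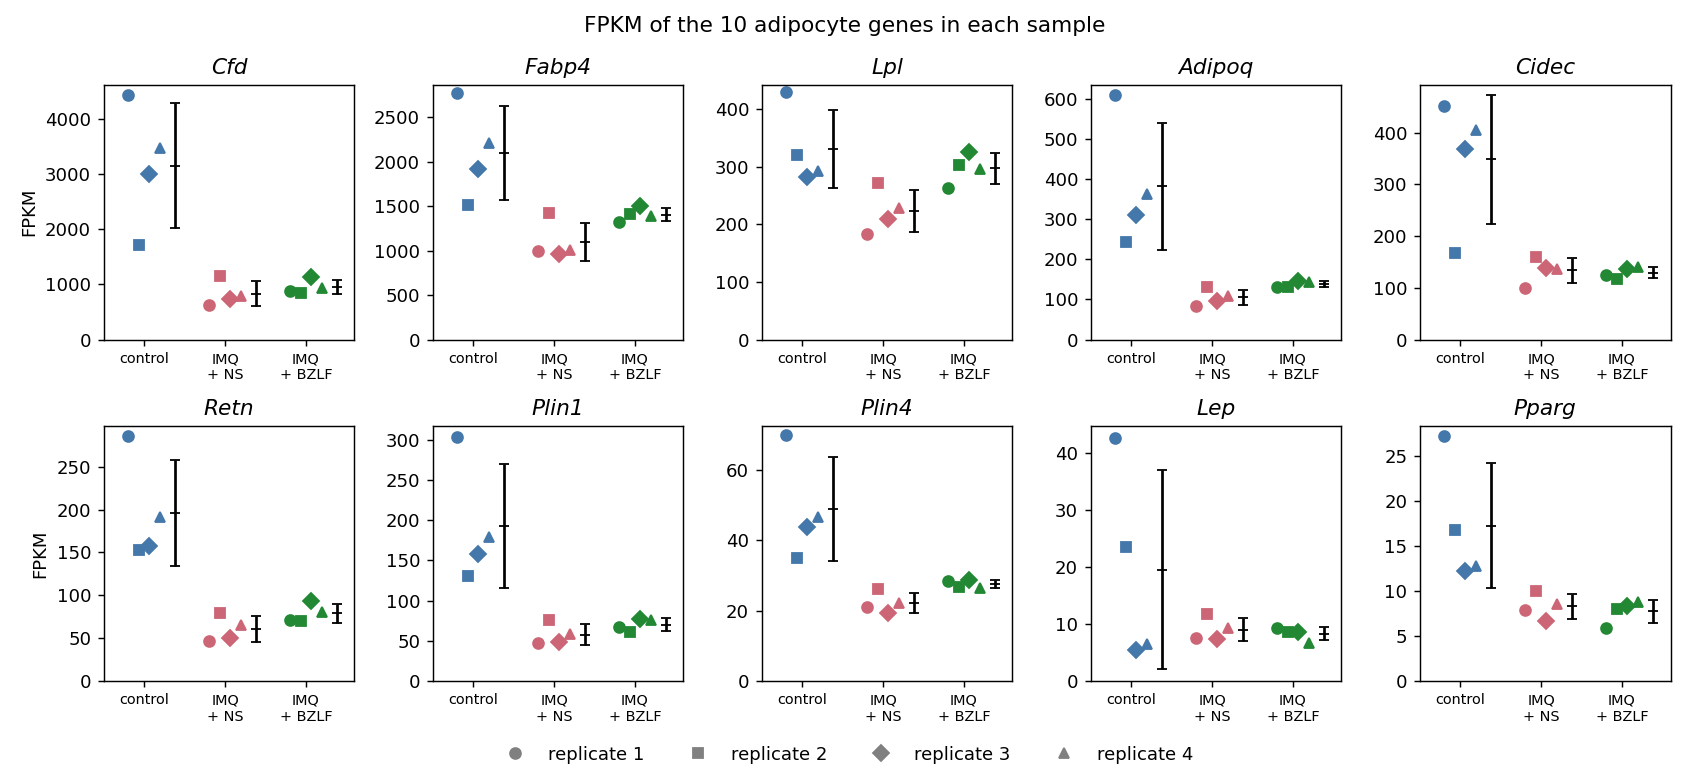
FPKM (linear axis from 0) of the 10 adipocyte genes in each of the 12 samples, ordered by mean level, with the mean and SD of the 4 samples of each group beside the points and the replicate number given by the symbol. Control replicate 1 is the highest control sample in all 10 panels, the IMQ + NS samples lie below all control samples for 9 genes, and Lep has control samples both above and below all IMQ-treated samples.

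Among the adipokines, Adipoq encodes adiponectin, an insulin-sensitizing hormone. Its FPKM was 609, 244, 311 and 364 in control samples, 84.8, 130, 96.5 and 109 in IMQ + NS samples and 131, 131, 146 and 143 in IMQ + BZLF samples. All control values lay above all IMQ-treated values, and the lowest IMQ + BZLF value (131.0) lay just above the highest IMQ + NS value (130.4). Adipoq fell 3.47-fold in IMQ + NS relative to control samples (log2 fold change -1.79, SE 0.26, limma adjusted p = 0.000562). The difference between IMQ + BZLF and IMQ + NS samples was 0.41 (SE 0.12, 95% interval 0.14 to 0.68, limma adjusted p = 0.0799), which did not pass the test.

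Retn encodes resistin, a cysteine-rich hormone of mouse adipocytes. It was measured at 285, 152, 157 and 191 FPKM in control, 45.9, 79.2, 50.1 and 65.4 FPKM in IMQ + NS and 70.5, 70.3, 93.7 and 80.1 FPKM in IMQ + BZLF samples. The control range was separate from both IMQ-treated ranges, which overlapped each other because of IMQ + NS replicate 2. Retn fell in IMQ + NS samples (log2 fold change -1.69, SE 0.23, limma adjusted p = 0.000433), the lowest adjusted p of the 10 genes. Its difference between IMQ + BZLF and IMQ + NS samples was 0.41 (SE 0.17, limma adjusted p = 0.194).

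Cfd encodes adipsin, complement factor D, a serine protease of the alternative complement pathway. It was the most highly expressed of the 10 genes in control skin at 4429, 1723, 2999 and 3483 FPKM, against 633, 1153, 731 and 796 FPKM in IMQ + NS and 877, 849, 1137 and 939 FPKM in IMQ + BZLF samples. Control replicate 2 was well below the other controls but still above every IMQ-treated sample, and both IMQ-treated groups overlapped. Cfd had the largest fall of the 10 genes in IMQ + NS samples (log2 fold change -1.89, SE 0.29, limma adjusted p = 0.000738). It differed by 0.23 (SE 0.18, limma adjusted p = 0.494) between IMQ + BZLF and IMQ + NS samples.

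Lep encodes leptin, the hormone that signals fat stores to the brain, and it was the exception. Its FPKM was 42.6, 23.5, 5.42 and 6.44 in control samples, 7.43, 11.8, 7.39 and 9.31 in IMQ + NS samples and 9.25, 8.57, 8.55 and 6.63 in IMQ + BZLF samples. Control replicates 1 and 2 were above, and control replicates 3 and 4 below, all IMQ + NS and IMQ + BZLF samples. The control mean of 19.5 ± 17.5 FPKM (SD, n = 4) therefore had a coefficient of variation of 89.8%, against 20.4% to 41.6% for the other 9 genes, and the highest control value was 7.86 times the lowest. The log2 fold change in IMQ + NS relative to control samples was -0.63 (SE 0.61, 95% interval -2.03 to 0.76, limma adjusted p = 0.400), and it was -0.09 without control replicate 1 and -1.07 without control replicate 3. A change of Lep in either direction within this interval was not detectable with these samples.

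Among the genes of the lipid droplet, Plin1 encodes perilipin 1, which coats the droplet and gates lipolysis. Its FPKM was 304, 130, 158 and 179 in control, 47.7, 75.7, 48.2 and 58.3 in IMQ + NS and 67.0, 60.7, 76.6 and 76.1 in IMQ + BZLF samples. The control values were all higher than the IMQ-treated values, and both IMQ-treated groups overlapped. Plin1 fell in IMQ + NS samples (log2 fold change -1.70, SE 0.26, limma adjusted p = 0.00071) and differed by 0.31 (SE 0.15, limma adjusted p = 0.258) between IMQ + BZLF and IMQ + NS samples.

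Plin4 encodes perilipin 4, found on small nascent droplets. It was measured at 70.01, 35.1, 43.8 and 46.8 FPKM in control, 21.1, 26.1, 19.4 and 22.2 FPKM in IMQ + NS and 28.4, 26.7, 28.6 and 26.4 FPKM in IMQ + BZLF samples. The 3 groups did not overlap, although IMQ + NS replicate 2 came close to the lowest IMQ + BZLF sample. Plin4 fell in IMQ + NS samples (log2 fold change -1.10, SE 0.20, limma adjusted p = 0.00159), a call that was lost without control replicate 1, when the log2 fold change was -0.91. The difference between IMQ + BZLF and IMQ + NS samples was 0.31 (SE 0.09, 95% interval 0.12 to 0.51, limma adjusted p = 0.0659), the lowest adjusted p of the 10 genes in this comparison.

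Cidec product, FSP27, fuses small droplets into the single large droplet of white adipocytes. The levels were 451, 167, 369 and 406 FPKM in control, 100.3, 159, 139 and 136 FPKM in IMQ + NS and 124, 117, 136 and 140 FPKM in IMQ + BZLF samples. Control replicate 2 lay far below the other controls and just above IMQ + NS replicate 2, and both IMQ-treated groups overlapped. Cidec fell in IMQ + NS samples (log2 fold change -1.31, SE 0.30, limma adjusted p = 0.00596). Between IMQ + BZLF and IMQ + NS samples it differed by -0.03 (95% interval -0.32 to 0.26, limma adjusted p = 0.920), a value whose sign changed with the scaling of the samples.

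Among the genes of fatty acid handling, Fabp4 encodes the fatty acid binding protein aP2, an abundant lipid carrier. Its FPKM was 2766, 1510, 1918 and 2210 in control, 997, 1418, 967 and 1003 in IMQ + NS and 1321, 1405, 1500.4 and 1383 in IMQ + BZLF samples. Control samples were higher than all IMQ-treated samples by a narrow margin, and IMQ + NS replicate 2 stood with the IMQ + BZLF samples rather than with its own group. The log2 fold change was -0.92 (SE 0.19, limma adjusted p = 0.00386) in IMQ + NS relative to control samples, under the fold threshold. It was 0.37 (SE 0.13, limma adjusted p = 0.127) in IMQ + BZLF relative to IMQ + NS samples.

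Lpl encodes lipoprotein lipase, which releases fatty acids from circulating triglyceride. It was measured at 430, 321, 282 and 293 FPKM in control, 184, 271, 209 and 229 FPKM in IMQ + NS and 262, 304, 326 and 297 FPKM in IMQ + BZLF samples. The IMQ + NS samples were lower than all control samples, while 3 of the 4 IMQ + BZLF samples lay within the control range. Lpl had the smallest difference of the 10 genes between IMQ + NS and control samples (log2 fold change -0.57, SE 0.16, limma adjusted p = 0.0152), under the fold threshold. It differed by 0.42 (SE 0.12, 95% interval 0.16 to 0.69, limma adjusted p = 0.0688) between IMQ + BZLF and IMQ + NS samples and by -0.14 (95% interval -0.45 to 0.17, limma adjusted p = 0.411) between IMQ + BZLF and control samples.

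Pparg, the nuclear receptor that directs adipocyte differentiation, had the lowest mean level of the 10 genes. Its FPKM was 27.2, 16.7, 12.2 and 12.8 in control, 7.88, 10.01, 6.65 and 8.52 in IMQ + NS and 5.85, 7.97, 8.29 and 8.76 in IMQ + BZLF samples. Control replicate 1 stood above the other controls, all of which were above the IMQ-treated samples, and the IMQ-treated groups overlapped. The log2 fold change of -0.99 (SE 0.25, limma adjusted p = 0.0092) in IMQ + NS relative to control samples lay just under the fold threshold, and -1.09 (SE 0.25, limma adjusted p = 0.00683) in IMQ + BZLF relative to control samples lay just over it. The latter call was lost without control replicate 1 (-0.84) or without IMQ + BZLF replicate 1 (-0.96). Pparg differed by -0.10 (95% interval -0.44 to 0.25, limma adjusted p = 0.745) between IMQ + BZLF and IMQ + NS samples.

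Counted together, 6 of the 10 genes were called lower in IMQ + NS than in control samples and 0 were called higher, while 11% of all genes tested were called lower and 11.4% higher. With no limit on the fold change, 9 of 10 were lower at an adjusted p below 0.05, against 27.1% of all genes. The groups did not overlap for 9 of 10 genes, all but Lep, against 25.7% of all genes with IMQ + NS lower. The median log2 fold change of the 10 genes was -1.20, against 0.05 for all genes tested. In an exact two-sided permutation test, 9 genes had p = 0.0286, the smallest value that 70 assignments of 4 against 4 samples allow, and Lep had p = 0.429.

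In IMQ + BZLF relative to IMQ + NS samples, limma called 0 of the 10 genes in either direction, against 2.20% of all genes called lower and 0.321% called higher. At an unadjusted p below 0.05, 5 genes were higher (Adipoq, Plin4, Fabp4, Lpl and Retn) and 0 lower, against 7.96% of all genes higher and 14.8% lower. By the exact permutation test 2 genes had p = 0.0286 (Adipoq and Plin4), which were also those whose groups did not overlap, against 4.24% of all genes with IMQ + BZLF higher. The log2 fold change was above 0 for 7 genes and below 0 for Cidec, Lep and Pparg, all 3 of which changed sign when 1 or more samples were left out. The median was 0.31, against -0.02 for all genes tested.

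In IMQ + BZLF relative to control samples, 6 of the 10 genes were called lower and 0 higher, against 10.1% and 9.65% of all genes. The called genes were Cfd (log2 fold change -1.66), Plin1 (-1.39), Adipoq (-1.39), Cidec (-1.33), Retn (-1.28) and Pparg (-1.09), with limma adjusted p-values from 0.00099 to 0.00683. The groups did not overlap for 8 of 10 genes, all but Lep and Lpl, against 28.1% of all genes with IMQ + BZLF lower, and the median was -1.19, against -0.02 for all genes tested. Each pair of these comparisons shares a group of samples, so their values are not independent of each other.

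**Figure D2:**
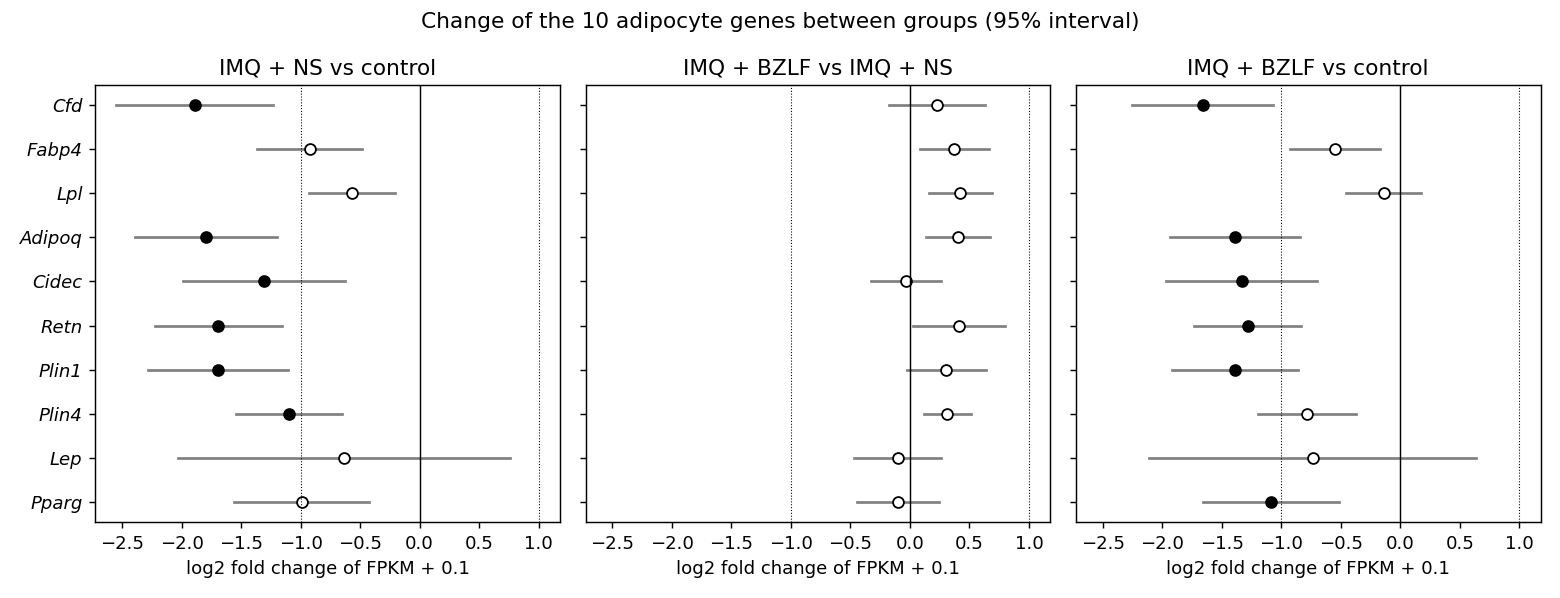
log2 fold change of FPKM + 0.1 for the 10 genes in the 3 comparisons, with bars for the 95% interval, filled points for genes called by limma and dotted lines at the fold threshold. In IMQ + NS relative to control samples 6 genes are called, from -1.10 to -1.89, in IMQ + BZLF relative to IMQ + NS samples all points lie between -0.10 and 0.42 with none called, and the interval of Lep is the widest in both comparisons with control.

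The order of the levels changed with treatment. In control skin Cfd (3159 ± 1127 FPKM, SD, n = 4) was above Fabp4 (2101 ± 528 FPKM) in 4 of 4 samples. In IMQ + NS skin Fabp4 (1096 ± 215 FPKM) was above Cfd (828 ± 227 FPKM), again in 4 of 4 samples, and the same held in IMQ + BZLF skin (1402 ± 74.6 against 951 ± 130 FPKM). Lpl had rank 5 of the 10 genes in control skin and rank 3 in both IMQ-treated groups. Adipoq and Cidec, and Cidec and Lpl, in control samples, Retn and Plin1 in control and IMQ + NS samples, and Lep and Pparg in every group were neighbours whose order was not the same in all samples.

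The ratio of each gene to Adipoq within a sample measures whether the genes changed by the same factor. Plin1 (0.10), Retn (0.10) and Cfd (-0.10) differed little on the log2 scale relative to Adipoq between IMQ + NS and control samples, and their groups overlapped. The ratio of Lpl to Adipoq was higher by 1.23, of Fabp4 by 0.87, of Pparg by 0.80 and of Plin4 by 0.69 in IMQ + NS than in control samples, with no overlap between groups (exact two-sided permutation p = 0.0286 each). Each of these 4 genes is also expressed by other cells, as given above, and the part of those cells in the ratios was not tested. The set depended on the reference. Relative to the mean of the 10 genes, Lpl was higher by 0.69 with no overlap, while Fabp4 (0.34), Pparg (0.27) and Plin4 (0.16) overlapped between groups. On that reference Adipoq (-0.53), Plin1 (-0.44), Retn (-0.43) and Cfd (-0.63) were lower with no overlap. Between IMQ + BZLF and IMQ + NS samples the ratios of Lep (-0.51), Pparg (-0.50) and Cidec (-0.44) to Adipoq were lower with no overlap (exact permutation p = 0.0286 each). Relative to the mean of the 10 genes, Pparg (-0.32) again had no overlap, while Lep (-0.33) and Cidec (-0.25) overlapped. Over all 27 ratios to Adipoq and comparisons 10 had an unadjusted exact permutation p below 0.05 and 0 had an adjusted p below it. The lowest adjusted p was 0.0771. All 10 stood at 0.0286, the smallest p that 70 assignments allow. Their adjusted p was thus set by how many ratios reached it, not by the size of the differences.

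Within groups the genes varied together from sample to sample. Control replicate 1 had the highest value of its group for 10 of 10 genes, IMQ + NS replicate 2 for 10 of 10 and IMQ + BZLF replicate 3 for 7 of 10, while control replicate 2 had the lowest value for 7 of 10. After group means were removed, the correlation between pairs of genes over the 12 samples had a median r of 0.786 over 45 pairs, from -0.131 for Cidec and Lep to 0.975 for Adipoq and Plin1. The median r was between 0.591 (without control replicate 1) and 0.863 (without control replicate 2) when single samples were left out. Against the mean of the other 9 genes, r was highest for Plin1 (0.964), Adipoq (0.955) and Retn (0.946) and lowest for Cidec (0.553) and Lep (0.435). All genes of a sample share its library and tissue piece, so these values describe the samples and have no test.

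**Figure D3:**
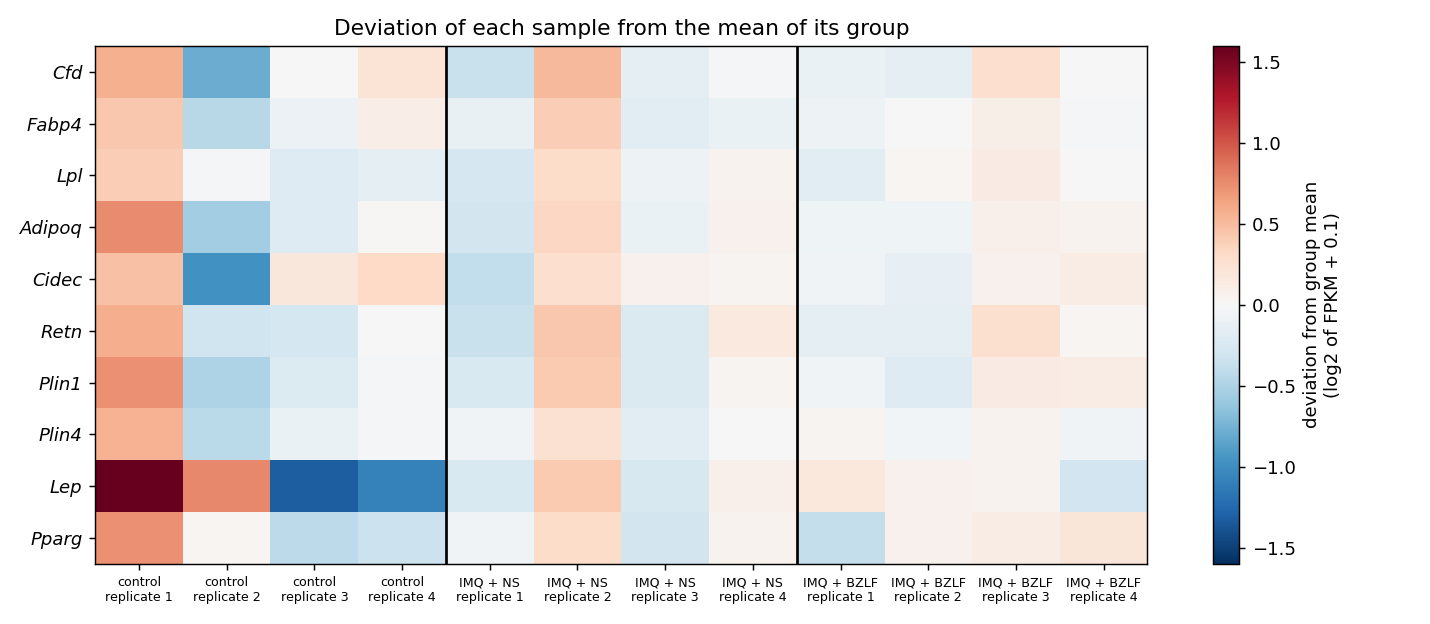
Deviation of each of the 12 samples (columns) from the mean of its group in log2(FPKM + 0.1), for each of the 10 genes, with red above and blue below the group mean. Control replicate 1 and IMQ + NS replicate 2 are red for all 10 genes, control replicate 2 is below the mean for 8 genes but not for Lep, and the strongest colours are those of Lep in control samples.

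By the same measure, the 5 genes most like the mean of the 10 among 12647 others with a mean FPKM of at least 1 were Slc7a10 (r = 0.976), Ghr (0.973), Lipe (0.970), Aoc3 (0.964) and C130074G19Rik (0.958) over 12 samples. Slc7a10 encodes an amino acid transporter that marks white adipocytes, Ghr the growth hormone receptor, Lipe hormone-sensitive lipase and Aoc3 a membrane amine oxidase of adipocytes. Over the 8 IMQ-treated samples alone r was between 0.903 and 0.943 for these 5 genes. Lipe had an FPKM of 122, 58.8, 67.1 and 78.7 in control samples and 34.7, 49.4, 38.1 and 42.5 in IMQ + NS samples. Because these genes were chosen by this likeness, their pattern over the samples adds no independent observation.

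Other genes of the adipocyte were read from 9 lists with 128 genes, of which 125 passed the filter on low values. In IMQ + NS relative to control samples 52 of these 125 were called lower and 4 higher, against 11% and 11.4% of all genes tested. The same shares of all genes apply to the counts of the single lists below. The median log2 fold change was -0.88, against 0.05 for all genes. Of 20 other adipocyte-enriched genes 16 were called lower and 0 higher (median -1.48). The carboxylesterases Ces1d (-2.62, SE 0.28, limma adjusted p = 0.000112) and Ces1f (-2.40, SE 0.38) led this list, although these neighbouring paralogs are similar enough that reads could be divided between them. Of 18 genes of the lipid droplet and fatty acid uptake 8 were called lower and 0 higher (median -0.86), led by Fitm1 (-3.10, SE 0.40, limma adjusted p = 0.000317), a droplet-forming protein mainly of muscle, and Plin5 (-1.86, SE 0.33), the perilipin of oxidative tissues.

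Of 12 genes of triglyceride synthesis 3 were called lower and 2 higher (median -0.37). Lpin1 (-1.10, SE 0.16), which makes diacylglycerol, and Mogat1 (-1.07, SE 0.40, limma adjusted p = 0.047) fell, while Lpin3 (2.44, SE 0.13) and the glycerol kinase Gk (1.68, SE 0.18, limma adjusted p = 0.000109) rose. Of 10 lipolysis genes 3 were called lower and 0 higher (median -0.95), among them the β1-adrenergic receptor Adrb1 (-1.82, SE 0.24) and Pnpla2 (-1.16, SE 0.24), the triglyceride lipase of the droplet. Of 14 genes of fatty acid synthesis 4 were called lower and 0 higher (median -0.88), led by the glucose-responsive factor Mlxipl (-1.92, SE 0.18) and the carboxylase Acacb (-1.72, SE 0.22).

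Of 16 adipokines and receptors 5 were called lower and 0 higher (median -0.57). Rbp4, the retinol carrier, had an FPKM of 123, 67.1, 86.4 and 93.7 in control, 15.5, 21.1, 13.1 and 14.7 in IMQ + NS and 25.7, 24.3, 31.2 and 33.2 in IMQ + BZLF samples, with no overlap between any of the groups. Its fall in IMQ + NS samples (-2.50, SE 0.20) was larger than that of any of the 10 genes, and Sfrp5 (-1.87, SE 0.27), a secreted WNT inhibitor, was also called. Of 16 adipogenic transcription factors 5 were called lower and 1 higher (median -0.80), with Ebf2 (-1.89, SE 0.24) and Nr1h3 (-1.28, SE 0.17) lower and Klf5 (1.17, SE 0.12), which basal keratinocytes also express, higher. Of 10 adipocyte progenitor genes 4 were called lower and 1 higher (median -0.64), with Cd34 (-2.43, SE 0.17) and Pi16 (-1.89, SE 0.28) lower and Cd24a (1.06, SE 0.27), which is also an epithelial gene, higher. Of 9 genes of thermogenic adipocytes 4 were called lower and 0 higher (median -0.79), led by Cox8b (-2.90, SE 0.38) and Cox7a1 (-2.81, SE 0.35), which are also subunits of muscle, while Ucp1, the defining gene of brown fat, was at 0 in 6 samples and at no more than 0.0761 FPKM in the others.

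In IMQ + BZLF relative to IMQ + NS samples 2 of the 125 genes were called lower and 0 higher, against 2.20% and 0.321% of all genes tested. At an unadjusted limma p below 0.05, 35 were higher and 14 lower. These are 28.0% and 11.2% of them, against 7.96% and 14.8% of all genes. Gk was 7.63, 9.11, 13.7 and 9.36 FPKM in IMQ + NS samples and 2.35, 3.34, 2.37 and 3.01 FPKM in IMQ + BZLF samples, a fall of 1.79 on the log2 scale (SE 0.18, limma adjusted p = 0.00151). The control samples, at 2.51 to 3.33 FPKM, lay in the range of the IMQ + BZLF samples. Hcar2, a receptor for nicotinic acid and ketone bodies on adipocytes that neutrophils, macrophages and keratinocytes also carry, fell by 1.03 (SE 0.13, limma adjusted p = 0.00424), and its difference between IMQ + NS and control samples was -0.10 (limma adjusted p = 0.730). Of the 125 genes 87 had a log2 fold change above 0 and 38 below (median 0.18). All 20 other adipocyte-enriched genes were above 0, with 0 called, 12 at an unadjusted limma p below 0.05 and 8 with no overlap between groups (median 0.40). Of all genes tested, 4.24% had no overlap with IMQ + BZLF higher. Ces1d was 0.74 (SE 0.07, limma adjusted p = 0.00113) and Rbp4 0.84 (SE 0.15, limma adjusted p = 0.015), both under the fold threshold.

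**Figure D4:**
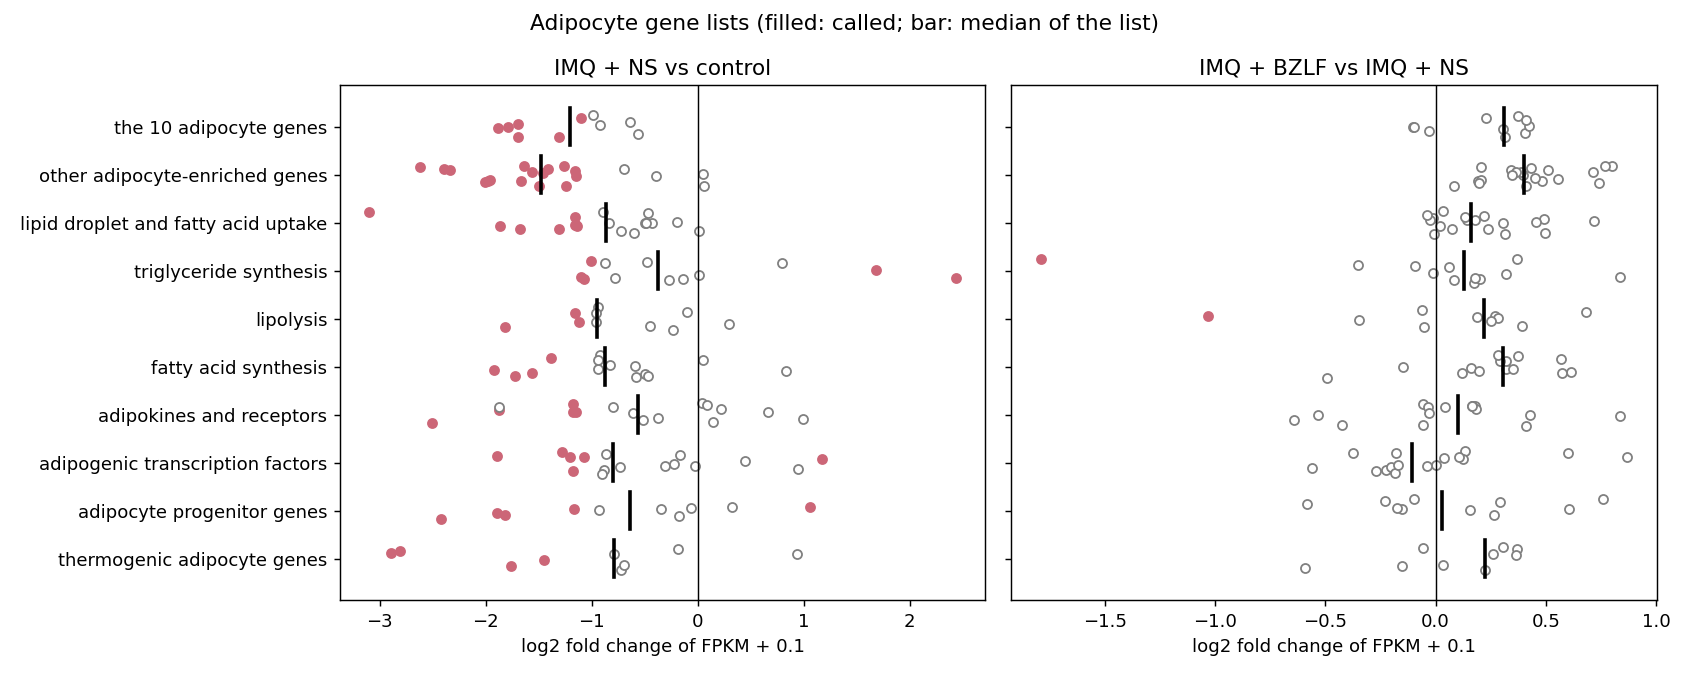
log2 fold change of FPKM + 0.1 for each gene (points) of the 10 adipocyte genes and the 9 further lists in IMQ + NS relative to control samples (left) and IMQ + BZLF relative to IMQ + NS samples (right), with filled points for genes called by limma and a bar at the median of each list. Left of 0 lie 103 of the 125 further genes in the first comparison, where the medians run from -1.48 to -0.37, and in the second comparison 2 genes are called, Gk and Hcar2.

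In IMQ + BZLF relative to control samples 37 of the 125 genes were called lower and 1, Lpin3, higher (median -0.69), against 10.1% and 9.65% of all genes tested. Of the other adipocyte-enriched genes 11 of 20 were called lower (median -1.24). Rbp4 (-1.67, SE 0.18) and Ces1d (-1.88, SE 0.28) were among those called lower. Lpin3 (2.64, SE 0.15) was at 38.7 ± 6.15 FPKM, against 6.13 ± 1.07 FPKM in control samples (SD, n = 4).

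Markers of other tissue layers moved in the same comparisons. The FPKM of 12 skeletal muscle markers added up to between 5032 and 12517 in control, 898 and 2148 in IMQ + NS and 1573 and 2158 in IMQ + BZLF samples. All 12 were called lower in IMQ + NS than in control samples, against 11% of all genes tested. All 12 also had a log2 fold change above 0 in IMQ + BZLF relative to IMQ + NS samples (median 0.49). Of these, 0 were called by limma and 5 were higher at an unadjusted limma p below 0.05, against 7.96% of all genes. Control replicate 2, the lowest control sample for 7 of the 10 adipocyte genes, and IMQ + NS replicate 2, the highest of its group for all 10, were also the lowest and highest of their groups for the muscle sum. Control replicate 1, the highest control sample for all 10 genes, also had the highest control muscle sum (12517 FPKM). IMQ + BZLF replicate 3, the highest of its group for 7 of the 10 genes, instead had the lowest muscle sum of its group (1573 FPKM).

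Of 7 fibroblast markers, with sums of 13549 to 19326 in control, 3831 to 5090 in IMQ + NS and 4479 to 8399 FPKM in IMQ + BZLF samples, 6 were called lower in IMQ + NS than in control samples. The 10 endothelial markers summed to 143 to 207, 106 to 126 and 80.5 to 126 FPKM with 1 called lower. The 10 macrophage markers summed to 908 to 1292, 638 to 899 and 420 to 625 FPKM with 1 called lower. Both counts compare with 11% of all genes tested called lower in IMQ + NS than in control samples. Of the macrophage markers 8 had a log2 fold change below 0 and 2 above, with 0 called higher. Adgre1 was higher with no overlap, at 22.6 to 33.3 FPKM in control and 43.7 to 52.7 FPKM in IMQ + NS samples. Of 10 sebaceous gland markers, at 801 to 1072, 516 to 808 and 336 to 701 FPKM, 5 were called lower, while 3 had a log2 fold change above 0. Soat1, 1 of these 3, was at 9.58 to 12.8 FPKM in control and 13.05 to 18.8 FPKM in IMQ + NS samples. Unlike the sums above, that of 6 keratinocyte markers was higher in IMQ + NS than in control samples. It was at 2183 to 3397, 4981 to 7766 and 2393 to 3952 FPKM. In IMQ + NS relative to control samples 4 of 6 were called higher, against 11.4% of all genes tested. Krt15, a basal keratin and 1 of these 6, was lower instead, at 338 to 437 FPKM in control and 188 to 253 FPKM in IMQ + NS samples (log2 fold change -0.83, limma adjusted p = 0.000679, under the fold threshold). None of these markers was at 0 in any sample, and their part in the differences of the adipocyte genes was not tested.

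**Figure D5:**
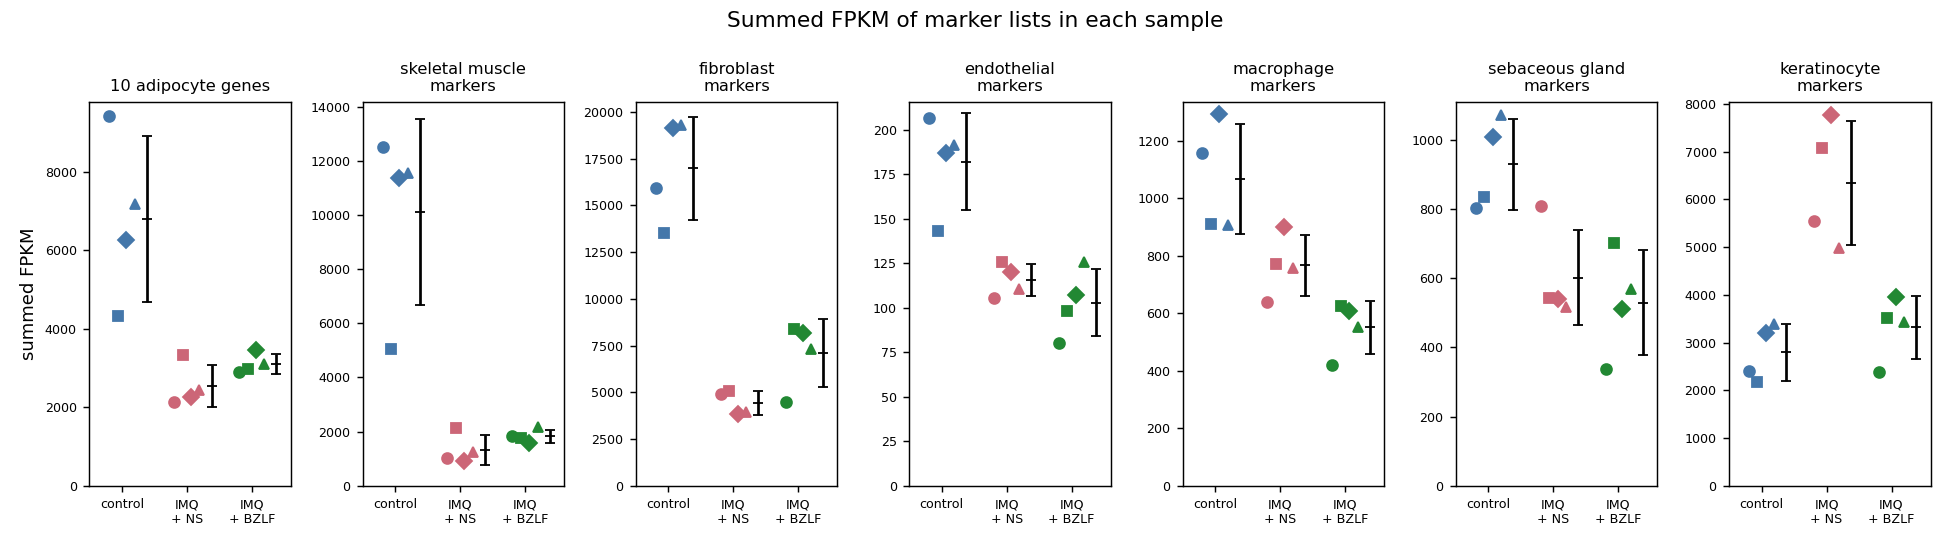
Summed FPKM (linear axis from 0) of the 10 adipocyte genes and of 6 marker lists in each sample, with the mean and SD of the 4 samples of each group and replicate symbols as in the plot of the 10 genes. From control to IMQ + NS samples the mean adipocyte sum is 2.67 times lower, the muscle sum 7.61 times lower, the fibroblast sum 3.82 times lower and the keratinocyte sum 2.27 times higher.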

How the data were processed

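The authors deposited a table of FPKM values of 18505 genes in 12 samples of mouse skin, 4 per group, on a linear scale and not pooled. The study's methods name Bowtie2 and eXpress, whereas the submitters' processing notes name fastp, HISAT2, HTSeq and R 3.2.0 with mm10, so the route to the FPKM is not settled. Strand use in counting is not given in the sources used here. The study's results state the data amount per sample, but the table holds no counts. The counting error of a value is therefore unknown, and precision comes from the 4 replicates. FPKM added up to 444660 to 506622 per sample, with 16649 to 16941 genes above 0.

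The 15288 genes whose FPKM averaged 0.1 or more were tested on log2(FPKM + 0.1) with limma 3.58.1 (R 4.3.3, moderated variances with a trend), each pair of groups alone, and adjusted by the Benjamini-Hochberg method. Calls needed both an adjusted p under 0.05 and a change of more than 1 on the log2 scale. The constant of 0.1 understates changes of low genes. The study's own test used counts. The procedure was tested on simulated data. Exact permutation tests, ratios, correlations and figures were made in Python 3.11.15 with pandas 2.3.3, numpy 2.4.6 and matplotlib 3.10.9.

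All 10 members are named, with up to 2 lower and 2 higher called genes of each list by size of change in IMQ + NS vs control, those called in IMQ + BZLF vs IMQ + NS, and the 5 genes most like the members. Members and lists were chosen with earlier results of these data known. Sample numbers were not used to pair samples. Alternatives were another constant, filter, scaling, pooled fit, variance setting or threshold, a block for sample number, and each sample left out. Promoter sequences came from RefSeq (GRCm38.p6).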

Additional observations from a re-analysis of the deposited data

Results flagged for a closer look

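The gap from the most extreme sample to its nearest neighbour, divided by the range of the group, was computed for 45 groups of 4 samples, and chance puts about 1 in 20 above the critical value. Of the 30 groups of the 10 adipocyte genes 1 was above it, which is no more than chance gives. This was Fabp4 in IMQ + NS samples, with a value of 0.918, where replicate 2 had an FPKM of 1418. The other 3 were among the genes chosen for varying like the 10 genes from sample to sample, so they repeat control replicate 1 by their choice. In control samples the value was 0.886 for Slc7a10, 0.850 for Ghr and 0.897 for Aoc3, where replicate 1 had an FPKM of 33.1, 96.2 and 66.4.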

How the results depend on the processing

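The number of adipocyte genes called stayed within 1.5 times the reported number under every alternative. Leaving out single samples gave 5 to 8 of 10 in IMQ + NS vs control, 0 in IMQ + BZLF vs IMQ + NS and 5 to 6 in IMQ + BZLF vs control. Without the fold threshold, calls in the 9 further lists went from 56 to 97 in IMQ + NS vs control, from 2 to 20 (6 lower) in IMQ + BZLF vs IMQ + NS and from 38 to 88 in IMQ + BZLF vs control. In IMQ + BZLF vs IMQ + NS that number was 1 with a constant of 1, with median ratio scaling and with quantile normalization, and 1 to 2 when single samples were left out, being 1 without IMQ + BZLF replicate 4 or IMQ + NS replicate 3. Cidec in IMQ + BZLF vs IMQ + NS (from -0.160 to 0.062 with single samples left out) turned to 0.027 with median ratio scaling, 0.00084 with equal sums, 0.021 with quantile normalization, 0.016 without IMQ + BZLF replicate 2 and 0.062 without IMQ + NS replicate 2. Pparg (from -0.197) turned to 0.027 without IMQ + BZLF replicate 1 and Lep (from -0.187) to 0.034 without IMQ + NS replicate 2, and the ratio of Plin1 to Adipoq in IMQ + BZLF vs control turned to 0.0023 with a constant of 1. In IMQ + NS vs control, Fabp4 passed the fold threshold with equal sums (-1.06) and quantile normalization (-1.06), and Pparg with these (-1.12 and -1.14) and with median ratio scaling (-1.03). In this comparison equal sums shifted the median of all genes by -0.126 and quantile normalization by -0.119. Over all genes, 3418, 385 and 3017 calls became 2191, 205 and 1844 with a constant of 1 and 8569, 986 and 8098 without the fold threshold, in IMQ + NS vs control, IMQ + BZLF vs IMQ + NS and IMQ + BZLF vs control. The causes were not tested. The table holds no counts, so counting error of low genes could not be given.

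Samples numbered 3 and 4 deviated with the same number in the other groups (r from 0.111 to 0.260, each the best match of the other), whereas samples numbered 1 and 2 had r from -0.152 to 0.0943. The IMQ + BZLF and IMQ + NS samples numbered 1 (r = 0.0943) were also each the best match of the other. Neither the labels nor the study's methods tie the numbers across groups and not every pair exceeded 0.1, so no pairing was used. With sample number as a block, 6, 0 and 6 adipocyte genes and 55, 2 and 37 genes of the further lists were called in the same 3 comparisons, and no call of the 10 genes changed.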

Other observations

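Lep was not alone in dividing the control samples. Among the 10 genes, control replicates 1 and 2 were also above replicates 3 and 4 for Pparg (27.2 and 16.7 against 12.2 and 12.8 FPKM) and Lpl (430 and 321 against 282 and 293 FPKM). The further genes below were chosen after their values had been seen. Npr3, the natriuretic peptide clearance receptor, had an FPKM of 15.4, 8.96, 2.55 and 2.71 in control replicates 1 to 4, and Angptl8, an insulin-induced inhibitor of lipoprotein lipase, 10.4, 16.4, 2.16 and 1.46. Angptl4, another inhibitor of lipoprotein lipase, had 37.9, 28.0, 84.4 and 86.8, Pck1, an enzyme of glyceroneogenesis, 25.8, 8.44, 52.7 and 60.8, and Cebpd, an early adipogenic factor, 33.2, 23.4, 68.9 and 64.3. Control replicates 1 and 2 were thus the higher samples for Lep, Npr3 and Angptl8 and the lower samples for Angptl4, Pck1 and Cebpd. The labels give no difference between the control samples, and no test was made.

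Angptl4 was 46.4, 48.9, 30.1 and 29.5 in IMQ + NS samples and 57.3, 70.02, 56.9 and 65.0 in IMQ + BZLF samples, with no overlap between these groups (log2 fold change 0.72, limma adjusted p = 0.0435, under the fold threshold). Pck1 was 19.1, 31.3, 26.8 and 20.9 in IMQ + NS and 43.8, 37.7, 45.4 and 45.7 in IMQ + BZLF samples, again with no overlap (0.84, limma adjusted p = 0.0134, under the fold threshold). Of all genes tested, 4.24% had no overlap with IMQ + BZLF higher. Angptl4 and Pck1 were picked after their values had been seen, so these values are a description only.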
